A study of Mus musculus with 13 samples.

Results

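Type 1 conventional dendritic cells (cDC1) were taken from single-cell libraries of mouse colon tumors and adjacent mucosa by their raw UMI counts, a UMI being 1 captured RNA molecule. Of the barcodes with at least 500 UMIs and 200 genes and under 25% mitochondrial UMIs, a cell was counted as a cDC1 when Xcr1 and Clec9a together gave at least 2 UMIs and H2-Aa at least 3, with Fscn1, Cd3e and Cd79a at 0 and the sum of C1qa, C1qb and C1qc under 20. This rule found 372 of the 118892 retained cells, 365 of them in the 10 tumors and 7 in the 3 mucosa libraries. The rule used the measured values of these 9 genes, so their levels are given as a description only. Xcr1 (chr9:123852315-123862029, minus strand) encodes the receptor for the chemokine XCL1, and Clec9a (chr6:129408862-129424763, plus strand) encodes a receptor for the actin of dead cells (mm10, GENCODE gene bounds).

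The tissue came from 3 C57BL/6J mice of genotype ApcMin/+; p16cis/cis, all on a diet supplemented with folic acid, choline, betaine and vitamin B12. The Min allele truncates Apc and leads to intestinal tumors, and the p16cis allele carries an inserted element that attracts DNA methylation to the p16 promoter. Mouse AP1086 (20 weeks) gave 4 tumors and 1 mucosa, mouse AP1044 (24 weeks) gave 4 tumors and 1 mucosa, and mouse AP1067 (23 weeks) gave 2 tumors and 1 mucosa. Both tissues were run with the 3′ v3.1 droplet chemistry, but mucosa was dissociated with EDTA and TrypLE and tumors with an enzyme kit for tumors, so tissue and dissociation cannot be told apart in any comparison of tumor with mucosa. Genotype and diet were shared by every library, and mice on the control diet were not analysed here.

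Tumor libraries held 7417 to 10817 retained cells with a median of 4029 to 5436 UMIs per cell, and mucosa libraries 5188 to 10684 cells with 8239 to 10816 UMIs. Ptprc, which encodes the leukocyte antigen CD45, was detected in 57.0 to 71.3% of the cells of a tumor and in 13.2 to 37.1% of the cells of a mucosa library. The labels name 7 libraries as female and 6 as male, and 2 of the 3 animal codes carry both sexes. All 13 libraries had 6949 to 12845 UMIs of 4 Y-linked genes and 1 to 10 UMIs of Xist, so the sex labels were not used. A pair of libraries shared 10 to 39 barcode sequences, at most 0.391% of the smaller library. Of the cDC1, 10 had a barcode sequence that also occurred in another library, and 0 of these were cDC1 there.

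Conventional dendritic cells take up antigen, carry it to lymph nodes and present it to T cells. The cDC1 branch depends on the transcription factors IRF8 and BATF3 and on the growth factor receptor FLT3, and is known for presenting antigen of other cells on MHC class I to CD8 T cells. The cDC2 branch depends more on IRF4 and presents mainly to CD4 T cells, and cells of either branch can mature, gain CCR7 and migrate. To show where cDC1 differ, other gates were set with the same limits on H2-Aa, C1q, Cd3e and Cd79a. Cd209a+ cells without Xcr1 or Clec9a UMIs were called cDC2 (344 cells in tumors). Cells with Fscn1 and Ccr7 UMIs were called mature dendritic cells (582 cells in tumors). No gate used a monocyte marker such as Lyz2, Csf1r or Ccr2. Cd209a+ cells of monocyte origin were thus not told apart from cDC2, and the name stands for the gate.

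In tumors, Clec9a was detected in 90.4% of the cDC1, Xcr1 in 67.7% and both in 58.1%. The given markers that the rule did not use were detected in most members: the transcription factor Batf3 in 84.4%, the growth factor receptor Flt3 in 76.4% and the interferon-inducible gene Ifi205 in 92.3% of them. In cDC2 the same genes were detected in 20.6%, 33.4% and 23.3% of the cells, at a lower depth. In mature cells, also at a lower depth, they were detected in 69.9%, 52.1% and 27.1%. The median depth was 13826 UMIs in cDC1, 6827 in cDC2 and 8662 in mature cells. Of the 6119 tumor cells with 20 or more C1q UMIs and at least 3 H2-Aa UMIs, 1.09% had a UMI of Xcr1 or Clec9a (median depth 9950 UMIs), and of the 28476 cells with 20 or more S100a8 and S100a9 UMIs and no H2-Aa, 0.225% had one (median depth 2799 UMIs). These shares give the level at which the pair is detected in cells that should lack it. Among mature cells the share was 6.53% (38 of 582; exact 95% binomial interval 4.66 to 8.85%).

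Members differed along the sum of Xcr1 and Clec9a that chose them, and so did their depth, with a median of 8806 UMIs at a sum of 1 (outside), then 10224, 12911, 16639 and 19370 UMIs in the 4 classes of members. The sum was 2 in 121 tumor cells, 3 or 4 in 118, 5 to 9 in 89 and 10 or more in 37, while 286 cells that met every other limit had a sum of 1 and stayed outside. Itgae, which encodes the integrin CD103, was at 74.2 counts per 1000000 UMIs (CPM) just outside the threshold, at 135 CPM just inside it, and at 377 CPM in the members with the highest sum. Cadm1, an adhesion molecule of cDC1, went from 18.7 CPM outside to 22.7 just inside and 216 at the top, and the double-stranded RNA sensor Tlr3 from 33.9 to 66.0 and 108. Batf3 was at 147 CPM outside and between 213 and 234 CPM in the 4 classes of members, and Flt3 at 76.2 outside and between 120 and 128 inside. Sirpa, a cDC2 gene, went the other way, from 26.5 CPM outside to 13.9 just inside and 1.40 at the top. For Itgae and Cadm1 the cells just inside the threshold lay between those outside and the members with more UMIs. For Tlr3 they lay above the members with a sum of 3 or 4 (58.6 CPM), and for Batf3 and Flt3 near the other members. Of the 372 members, 7 also had at least 2 Cd209a UMIs.

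**Figure D1:**
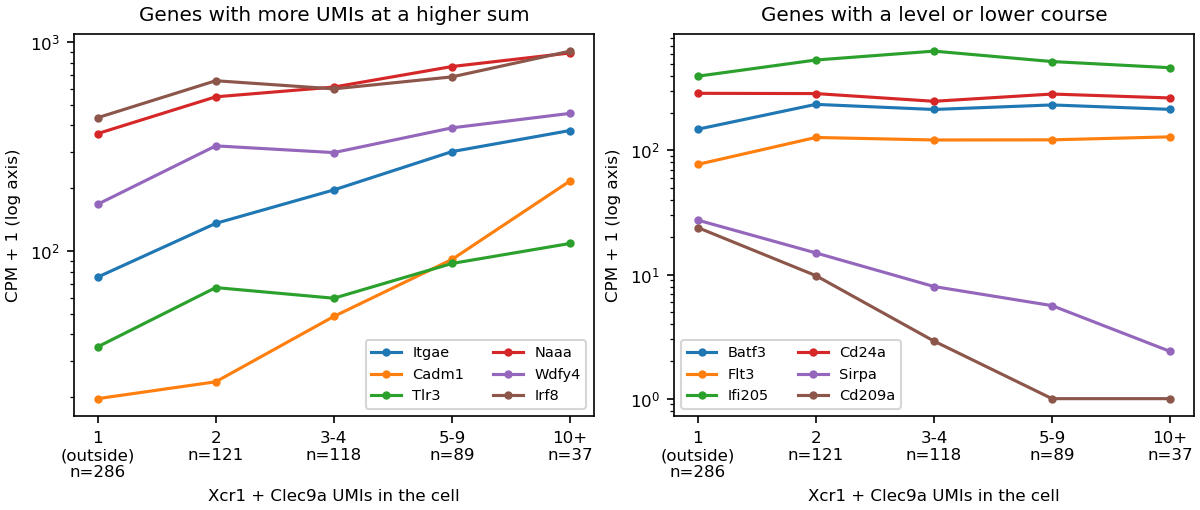
Level of 12 genes (CPM plus 1, log axis) in tumor cells grouped by their summed Xcr1 and Clec9a UMIs (x axis, with the number of cells). The 286 cells with a sum of 1 met every other limit but are not members, and Itgae rises from 74.2 to 377 CPM across the groups while Sirpa falls from 26.5 to 1.40 CPM; the median depth rises from 8806 to 19370 UMIs as well.

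cDC1 made up 0.197 to 0.582% of the cells of a tumor (median 0.360%), with a mean over the mice of 0.373% ± 0.0902 (SD, n = 3 mice). The mucosa libraries held 6 cDC1 of 5188 cells in AP1086 (0.116%; exact 95% binomial interval 0.0425 to 0.252%), 1 of 9149 in AP1067 (0.0109%; 0.000277 to 0.0609%) and 0 of 10684 in AP1044, which allows a share of up to 0.0281% by a limit of 3 counts. Every tumor was above the mucosa of its own mouse, and the 10 tumors did not overlap with the 3 mucosa libraries. The tumor mean exceeded the mucosa by 0.360 points in AP1086, 0.340 in AP1044 and 0.293 in AP1067, on average 0.331 points ± 0.0342 (SD, n = 3 mice). The exact within-mouse permutation test gave a two-sided p of 0.0133, the smallest its 75 arrangements allow (adjusted p = 0.02 over 3 share comparisons). Set against the number of Ptprc+ cells, which were a larger part of tumors, cDC1 came to 0.282 to 0.961% in tumors. The cDC1 counted did not need a Ptprc UMI themselves, so this is a ratio and not a share. In the mucosa libraries of AP1086, AP1044 and AP1067 the ratio was 0.312, 0 and 0.0454%, so the lowest tumor lay below the highest mucosa library. That difference averaged 0.466 points ± 0.0429 (SD, n = 3 mice; exact permutation p = 0.0133, adjusted p = 0.02). With every cell thinned to 1000 UMIs and gated by looser limits it was 0.272 points (exact permutation p = 0.08). Thinning left out 2673 shallower cells of tumors and 1206 of mucosa. Thinned, the difference in the share of all cells was 0.121 points (exact permutation p = 0.04). In thinned cells any UMI of Xcr1 or Clec9a and any UMI of H2-Aa were enough, so the gate was not the main one. Unthinned, at least 1 UMI of Xcr1 and Clec9a gave 0.577 points of all cells and 0.733 points for the ratio to Ptprc+ cells.

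**Figure D2:**
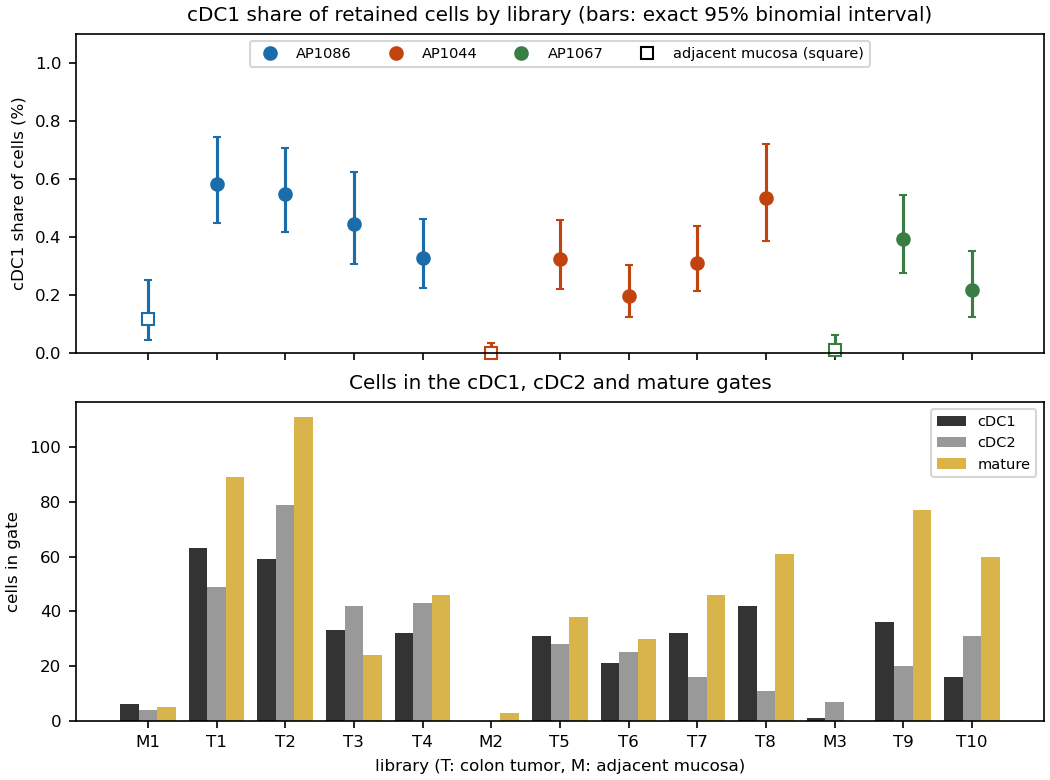
Upper panel, the cDC1 share of retained cells (%) in each of the 13 libraries with its exact 95% binomial interval, by mouse, with mucosa as open squares; the 10 tumors lie between 0.197 and 0.582% and the 3 mucosa libraries between 0 and 0.116%. Lower panel, the number of cells in the cDC1, cDC2 and mature gates of each library.

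No difference in the share between mice passed the test. The 4 tumors of AP1086 averaged 0.476% ± 0.115 (SD) of all cells, the 4 of AP1044 0.340% ± 0.140 and the 2 of AP1067 0.304% ± 0.126, with overlapping ranges (exact permutation test of F over 3150 arrangements, F = 1.65, p = 0.252). With at least 1 UMI of Xcr1 or Clec9a in place of 2, F was 5.24 (exact permutation p = 0.0552). Among the cells of the 3 dendritic gates, cDC1 were 15.0 to 36.8% in tumors and 40.0% in the mucosa of AP1086, the single mucosa library with at least 10 such cells (15 cells). With that library alone the difference of -11.3 points could not pass a test (exact permutation p = 0.2, the smallest its 5 arrangements allow). The number of cDC1 per cDC2 ranged from 0.516 in tumor 10 to 3.82 in tumor 8, which held 11 cDC2.

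Over the 10 tumors, the ratio of cDC1 to Ptprc+ cells was set beside that of 4 other gates, a family of 4 relations. With the mature gate, Pearson's r was 0.572 (exact permutation within mice, p = 0.0156, adjusted p = 0.0625). Spearman's rho was 0.455 (exact permutation p = 0.0946, adjusted p = 0.378). Without the 2 tumors whose cDC1 ratio lay farthest from the median, both of AP1086, the pooled r was 0.105. Within AP1086 r was 0.746 and within AP1044, which held neither of them, 0.982, over 4 tumors each, and AP1067 gave too few tumors for a value. With cDC2 r was 0.562 (exact permutation p = 0.452) and rho 0.527 (p = 0.739), and r was 0.602 within AP1086 and -0.541 within AP1044. With NK cells r was 0.354 (exact permutation p = 0.516) and rho 0.430 (p = 0.459), with -0.371 within AP1086 and 0.724 within AP1044, and with Cd8b1+ T cells r was 0.209 (exact permutation p = 0.419) and rho 0.212 (p = 0.423), with 0.306 and 0.766. Every adjusted p of these 3 relations was 0.516 or higher. Without the 2 tumors farthest from the median, r was 0.179, 0.0134 and -0.175 in the same order. Xcl1, which encodes the ligand of XCR1, was at 486 to 1362 CPM in the NK gate of the 10 tumors (median 751) and at 563, 972 and 1954 CPM in that of the 3 mucosa libraries, ranges that overlapped and were not tested. It gave 0 UMIs in the 365 cDC1 of the tumors.

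Against cDC2 of the same tumors, 3318 genes passed the filter on low counts and 47.5% of them were called at an adjusted p under 0.05. Of these, 748 were higher (22.5%) and 829 lower (25%) in cDC1. The test was edgeR's quasi-likelihood test with the tumor as a block, over 10 tumors, with the Benjamini-Hochberg adjustment over all genes tested. Levels below are counts per 1000000 UMIs (CPM) of a gate in 1 tumor, given as the lowest to the highest of the 10 tumors. They compare 1 gene between gates and not genes with each other. Log2 fold changes are cDC1 minus the other gate with their SE. Several tumors came from 1 mouse, so these p-values measure the spread between tumors. In every list a gene could pass the filter through the gate in which it is high, which fixes its direction, so the counts of lists in both comparisons describe the genes tested only. The ranges of the gates did not overlap for 292 genes (8.80%). Genes of the gates were fitted with the rest, so those past the filter are in the counts of tested, called and non-overlapping genes, although they chose the cells.

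Identity genes of cDC1 were higher in cDC1 than in cDC2. Of the 28 such genes in the files 17 passed the filter, and 16 were higher and 0 lower. Their median log2 fold change was 2.70, against 0.02 over all genes tested. Gcsam (chr16:45610380-45622867), a signaling adapter also known from germinal center B cells, was at 59.8 to 117 CPM (median 84.2) in cDC1 and at 0 UMIs in the cDC2 of all 10 tumors. Against a limit of 3 counts over all cDC2, it was at least 79.0-fold higher in cDC1. Tlr3 (chr8:45395665-45411080), the sensor of double-stranded RNA, was at 43.5 to 96.8 CPM (median 73.2) in cDC1 and 0 to 13.1 CPM (median 0) in cDC2. Tlr3 had a log2 fold change of 4.77 ± 0.37 (adjusted p = 4.55e-09). Itgae (chr11:73090583-73147446) was at 142 to 337 CPM (median 242) in cDC1 and 0 to 47.4 CPM (median 3.58) in cDC2. For Itgae this was a log2 fold change of 4.51 ± 0.33 (adjusted p = 1.64e-09). In every tumor Gcsam, Tlr3 and Itgae were higher in cDC1, and the gates did not overlap. These genes, with 0, 6 and 24 UMIs in cDC2, passed the filter through cDC1, which fixed their direction. They were also among the genes named for the largest differences in the same direction in every tumor, so the ranges are a description.

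More identity genes were higher in the cDC1 of every tumor. Naaa, an acid amidase of the lysosome, was at 445 to 823 CPM (median 650.2) in cDC1 and 26.3 to 114 CPM (median 64.9) in cDC2. Naaa differed by a log2 fold change of 3.12 ± 0.16 (adjusted p = 1.05e-11). Wdfy4, which cDC1 need for cross-presentation, was at 259 to 547 CPM (median 348) and 13.1 to 104 CPM (median 50.2). Wdfy4 had a log2 fold change of 2.78 ± 0.17 (adjusted p = 8.16e-11). Plet1, a surface protein, was at 389 to 1013 CPM (median 749) and 0 to 150.3 CPM (median 43.9). For Plet1 this was a log2 fold change of 3.32 ± 0.33 (adjusted p = 8.43e-08). Rab7b, a small GTPase of endosomes, was at 77.3 to 178 CPM (median 106) and 0 to 24.9 CPM (median 4.16). Rab7b differed by a log2 fold change of 4.26 ± 0.33 (adjusted p = 4.48e-09). The ranges of Naaa, Wdfy4, Plet1 and Rab7b did not overlap between the gates. For Rab7b, which had 13 UMIs in cDC2 and passed the filter through cDC1, this is a description. Ifi205, of the interferon-inducible p200 family, was at 438 to 749.6 CPM (median 540.5) and 17.8 to 167 CPM (median 64.8). Ifi205 had a log2 fold change of 2.70 ± 0.21 (adjusted p = 3.07e-09). Its ranges did not overlap either. Flt3, the receptor of the growth factor on which dendritic cells depend, differed less, at 78.7 to 169 CPM (median 124) and 32.9 to 103 CPM (median 68.6). For Flt3 this was a log2 fold change of 0.89 ± 0.16 (adjusted p = 1.59e-04). Every tumor had more Flt3 in its cDC1, but the ranges overlapped. Itgax, which encodes CD11c of both branches, was at 48.5 to 109 CPM (median 64.8) and 41.5 to 104 CPM (median 60.8) and did not pass. Itgax differed by a log2 fold change of -0.11 ± 0.14 (adjusted p = 0.55).

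Other genes with the largest differences towards cDC1 in every tumor were not on any list. Serpinb6b, a protease inhibitor, was at 57.3 to 518 CPM (median 125) in cDC1 and 0 to 13.8 CPM (median 0) in cDC2. Serpinb6b had a log2 fold change of 4.55 ± 0.38 (adjusted p = 9.77e-09). Ctla2b, related to cathepsin propeptides, followed with a log2 fold change of 4.47 ± 0.33, and Agpat3, an enzyme of phospholipid synthesis, with 4.11 ± 0.30. The mitochondrial glutamyl-tRNA synthetase gene Ears2 stood at 3.93 ± 0.35, the ubiquitin ligase gene Trim35 at 3.56 ± 0.18 and Ncoa7, a gene of oxidation resistance, at 3.55 ± 0.14. The ranges of Serpinb6b, Ctla2b, Agpat3, Ears2, Trim35 and Ncoa7 did not overlap between the gates. These genes were chosen for a large difference in the same direction in every tumor, which favors gates that do not overlap. Serpinb6b, Ctla2b, Agpat3 and Ears2, with 13, 11, 14 and 12 UMIs in cDC2, passed the filter through cDC1, so the ranges are a description. In mature cells Serpinb6b was at 409 to 1690.1 CPM (median 1148), Ears2 at 48.5 to 131 CPM (median 83.2) and Ncoa7 at 194 to 619.5 CPM (median 384). Trim35 was at 32.4 to 148 CPM (median 109) there. Ctla2b, at 0 to 9.17 CPM (median 0.936), and Agpat3, at 0 to 16.8 CPM (median 3.62), were low in mature cells.

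**Figure D3:**
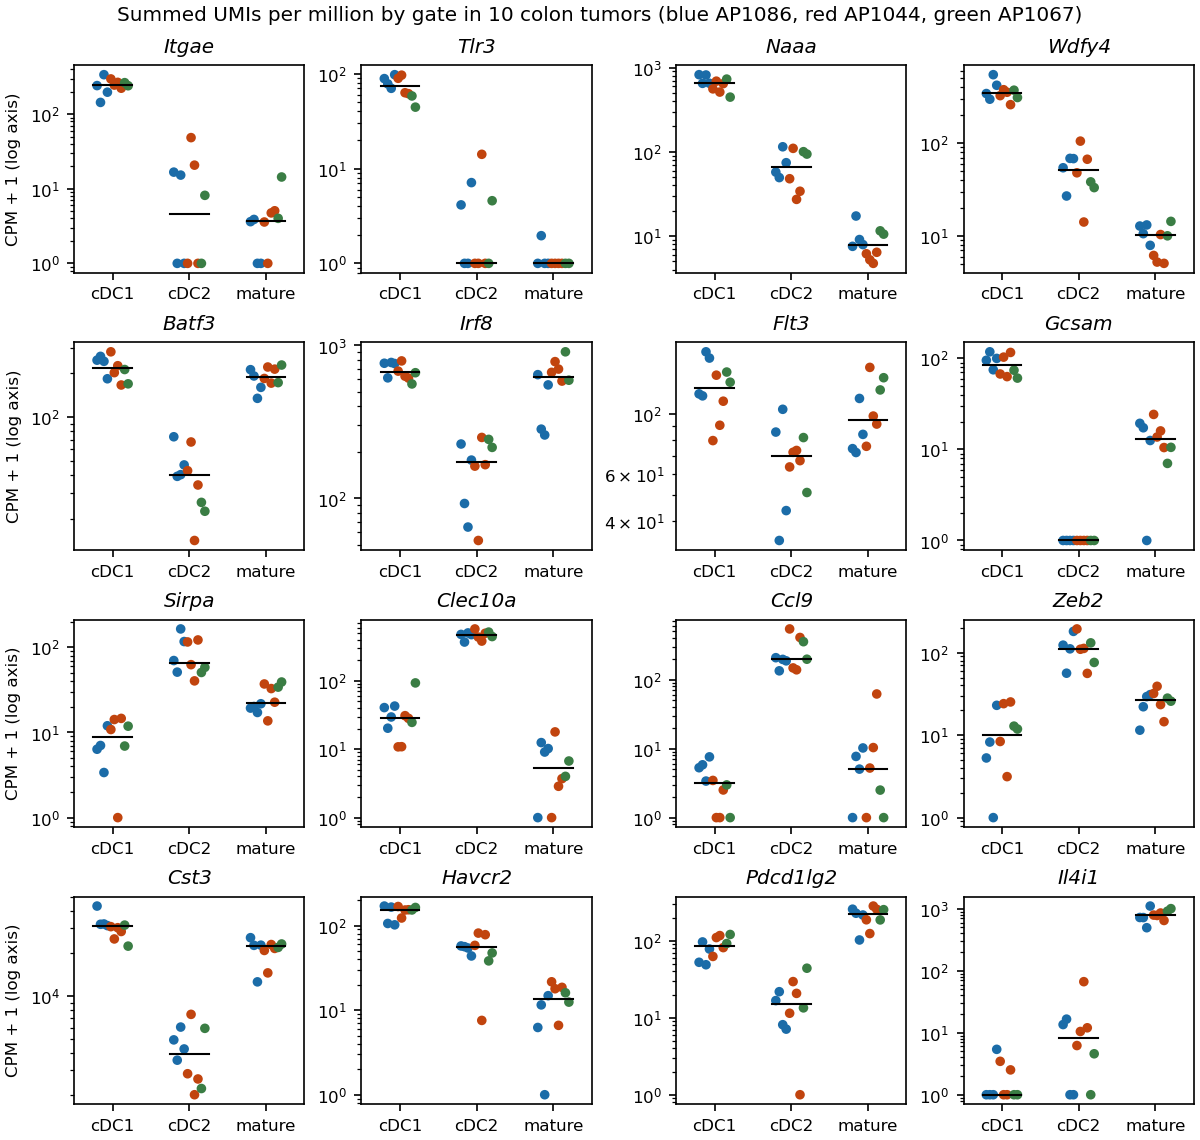
Level of 16 genes (CPM plus 1, log axis) in the cDC1, cDC2 and mature gates of the 10 colon tumors; each point is 1 tumor, colored by mouse, and the line is the median. Gcsam is at 0 in the cDC2 of every tumor, and Batf3 and Irf8 overlap between cDC1 and mature cells but not between cDC1 and cDC2.

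Batf3, Irf8 and Id2, on which cDC1 depend, were higher in cDC1, and Zeb2, Klf4 and Tcf4 were lower. Of the 17 transcription factors of dendritic cells tested, 4 were higher and 9 lower (median log2 fold change -0.54). Over all genes tested 22.5% were higher and 25% lower. Batf3 was at 165 to 280.4 CPM (median 218) in cDC1 and 13.1 to 72.2 CPM (median 38.6) in cDC2. For Batf3 this was a log2 fold change of 2.34 ± 0.16 (adjusted p = 8.32e-10). Irf8 was at 559 to 792 CPM (median 671) and 52.1 to 249.6 CPM (median 171). Irf8 differed by a log2 fold change of 2.05 ± 0.20 (adjusted p = 5.53e-08). Batf3 and Irf8 were higher in cDC1 in every tumor, and the gates did not overlap. The other higher ones were Id2, which cDC1 need for their development (1.82 ± 0.19), and Hhex (0.75 ± 0.17). Zeb2, a repressor that turns progenitors away from cDC1, was at 0 to 24.3 CPM (median 9.12) in cDC1 and 55.1 to 193 CPM (median 111) in cDC2. Zeb2 had a log2 fold change of -3.48 ± 0.31 (adjusted p = 2.34e-08). Klf4, a factor of cDC2, was lower in cDC1 (-1.46 ± 0.23), and so was Tcf4, the factor of plasmacytoid cells (-1.76 ± 0.24). Nfil3 (0.13 ± 0.19; adjusted p = 0.59) and Spi1 (0.21 ± 0.09; adjusted p = 0.0529) did not pass. Irf4, Zbtb46 and 5 others were below the filter.

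Of 30 genes of the class I pathway tested, 9 were higher and 10 lower in cDC1 (median log2 fold change -0.06), shares not far from the 22.5% higher and 25% lower over all genes tested. Wdfy4 was among the higher ones. Psmb9, an immunoproteasome subunit, was at 777 to 1103 CPM (median 909) in cDC1 and 214 to 415 CPM (median 322) in cDC2. For Psmb9 this was a log2 fold change of 1.43 ± 0.08 (adjusted p = 3.69e-11). Its partner Psmb8 (0.93 ± 0.06), the proteasome activators Psme1 (1.16 ± 0.07) and Psme2 (0.53 ± 0.08), the peptide transporter gene Tap2 (0.86 ± 0.16), the peptide editor gene Tapbpl (1.07 ± 0.26), the chaperone gene Pdia3 (0.46 ± 0.11) and Rab43, a GTPase of cross-presentation (1.31 ± 0.13), were higher as well. Other genes of the same steps did not pass, namely the proteasome subunit gene Psmb10 (-0.05 ± 0.10; adjusted p = 0.696), Tap1 (0.11 ± 0.10; adjusted p = 0.366), Tapbp (0.01 ± 0.15; adjusted p = 0.982) and Calr (0.11 ± 0.11; adjusted p = 0.453), and the chaperone gene Canx (-0.52 ± 0.15) was lower. Of 6 class I chains tested, H2-D1, H2-K1 and H2-T23 were lower. H2-D1 was at 1005 to 1682 CPM (median 1306) in cDC1 and 1563 to 2104 CPM (median 1907) in cDC2. H2-D1 differed by a log2 fold change of -0.57 ± 0.08 (adjusted p = 5.76e-06). H2-K1 (-0.38 ± 0.11) and B2m (-0.56 ± 0.09) were lower too, with ranges that overlapped in all 3, and H2-T23 stood at -0.29 ± 0.08. H2-Q4 (-0.33 ± 0.19; adjusted p = 0.162), H2-Q7 (0.04 ± 0.22; adjusted p = 0.901) and H2-T22 (-0.07 ± 0.19; adjusted p = 0.77) did not pass. These chains have near-identical relatives, and how reads were assigned among them was not tested. Without the filter on low counts the call on H2-K1 ended (-0.25). Cybb, the catalytic part of the phagosome NADPH oxidase, was at 0 to 66.0 CPM (median 10.7) and 114 to 298 CPM (median 224). Cybb had a log2 fold change of -3.57 ± 0.30 (adjusted p = 1.18e-08). The ranges of Cybb did not overlap.

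Of 16 class II genes, 3 were higher and 6 lower (median log2 fold change -0.10). Over all genes tested 22.5% were higher and 25% lower. Cst3, an inhibitor of cathepsins, was at 22509.8 to 43099.8 CPM (median 31133) in cDC1 and 2023 to 7447 CPM (median 3896) in cDC2. For Cst3 this was a log2 fold change of 2.89 ± 0.18 (adjusted p = 2.47e-10). In every tumor Cst3 was higher in cDC1, without overlap. The other higher ones were the class II ubiquitin ligase gene March1 (1.05 ± 0.22) and H2-Ob (0.85 ± 0.17). The protease genes Ctss (-0.93 ± 0.09), Ctsh (-1.04 ± 0.08), Ctsl (-1.52 ± 0.30) and Lgmn (-1.49 ± 0.21) were lower. Cd74, the invariant chain, was lower at -0.17 ± 0.07, a call that ended in 11 alternatives, DESeq2 (-0.16) among them. H2-Ab1 and H2-Eb1 did not pass. H2-Ab1 was at 8441 to 12007 CPM (median 9921) and 5326 to 9415 CPM (median 8447). H2-Ab1 differed by a log2 fold change of 0.16 ± 0.07 (adjusted p = 0.0875). It passed without the filter on low counts (0.28) and with at least 3 Xcr1 and Clec9a UMIs (0.22). H2-Eb1 stood at 0.07 ± 0.08 (adjusted p = 0.544), with a sign that turned in 3 alternatives. Among 16 genes of lysosomes and phagocytosis, 13 were lower in cDC1 and 1 was higher (median log2 fold change -1.08). The protease gene Ctsd (-1.81 ± 0.23) and Fabp5, a fatty acid binding protein (-3.33 ± 0.27), were lower. Psap, the precursor of the saposins, was the higher one at 826 to 1725 CPM (median 1338) against 329 to 724 CPM (median 466). Psap had a log2 fold change of 1.30 ± 0.10 (adjusted p = 3.07e-09).

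Few sensors passed the filter. Of the 22 in the files 6 were tested. Tlr3, the chaperone of endosomal Toll-like receptors Unc93b1 (0.35 ± 0.09) and the lectin Clec12a (0.73 ± 0.24) were higher. Lower were the adapter Myd88 (-0.70 ± 0.15), Tmem173, which encodes STING (-0.69 ± 0.13), and the lectin Clec4n (-2.72 ± 0.45). Without the cells that held RNA of another lineage, Unc93b1 (0.26) and Clec12a (0.59) no longer passed. Clec12a also failed without tumor 2 (0.58) and without the tumor as a block (0.71).

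Among 14 costimulation and checkpoint genes, 3 were higher and 7 lower in cDC1, against 22.5% higher and 25% lower over all genes tested. Pdcd1lg2, which encodes the PD-1 ligand PD-L2, was at 47.7 to 119.5 CPM (median 85.6) in cDC1 and 0 to 42.9 CPM (median 14.1) in cDC2. For Pdcd1lg2 this was a log2 fold change of 2.18 ± 0.22 (adjusted p = 1.07e-07). Havcr2, which encodes TIM-3, was at 101 to 169 CPM (median 153) and 6.57 to 80.6 CPM (median 54.4). Havcr2 differed by a log2 fold change of 1.36 ± 0.18 (adjusted p = 4.74e-06). The inhibitory receptor Btla was the other higher one (2.43 ± 0.21). The ranges of Pdcd1lg2, Havcr2 and Btla did not overlap. Lower were the costimulators Cd40 (-1.79 ± 0.20) and Cd80 (-1.16 ± 0.26), and Cd86 at 158 to 245 CPM (median 196) against 154 to 318 CPM (median 234). Cd86 had a log2 fold change of -0.33 ± 0.12 (adjusted p = 0.0237). The call on Cd86 ended in 6 alternatives, among them the fits without tumor 1, 2 or 5. Cd274, which encodes PD-L1, did not pass (-0.05 ± 0.25; adjusted p = 0.895).

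No cytokine or chemokine gene tested was higher in cDC1. All 3 cytokine genes tested were lower, and the other 17, Il12a, Il12b and Il15 among them, were below the filter. Il12b, a subunit of IL-12, had 109 UMIs in cDC1, in 9 of 10 tumors, and 0 in cDC2, a difference that was not tested. Il1b was at 499 to 2607 CPM (median 779) in cDC1 and 1176 to 3647 CPM (median 2389) in cDC2. For Il1b this was a log2 fold change of -1.58 ± 0.12 (adjusted p = 1.77e-09). Tgfb1 (-1.17 ± 0.13) and the IL-1 receptor antagonist gene Il1rn (-3.36 ± 0.41) were the others. Of 8 chemokine genes 3 were lower, against 25% over all genes tested. Ccl9 (chr11:83572919-83578636) was at 0 to 6.60 CPM (median 2.18) in cDC1 and 133 to 543 CPM (median 196) in cDC2. Ccl9 differed by a log2 fold change of -6.32 ± 0.25 (adjusted p = 4.20e-13). The ranges of Ccl9 and Ccl6 did not overlap, Ccl6 standing at -3.28 ± 0.13. For Ccl9, which had 15 UMIs in cDC1 and passed the filter through cDC2, this is a description. Cxcl10, which draws CXCR3+ T cells, was at 12.9 to 364 CPM (median 106) and 259.8 to 3082 CPM (median 1265). Cxcl10 had a log2 fold change of -3.68 ± 0.33 (adjusted p = 2.19e-08). Cxcl9, another ligand of CXCR3, was at 152 to 548 CPM (median 237) and 157 to 719 CPM (median 346) and did not pass. For Cxcl9 this was a log2 fold change of -0.23 ± 0.23 (adjusted p = 0.437).

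Of 12 receptors for chemokines and adhesion tested, 2 were higher and 8 lower in cDC1. Over all genes tested 22.5% were higher and 25% lower. The higher ones were Itgae and Ccr7, the receptor that guides cells to lymph nodes, at 6.60 to 186 CPM (median 59.6) in cDC1 and 0 to 69.0 CPM (median 18.2) in cDC2. Ccr7 differed by a log2 fold change of 1.52 ± 0.30 (adjusted p = 3.85e-04). Ccr2, a receptor of monocytes and cDC2, was at 2.14 to 35.2 CPM (median 16.9) and 72.2 to 309 CPM (median 172). Ccr2 had a log2 fold change of -3.44 ± 0.19 (adjusted p = 4.66e-11). Among 14 growth factor and cytokine receptors, Flt3 and Kit (1.00 ± 0.19) were higher and 9 were lower. Csf1r, the receptor of the macrophage growth factor, was at 0 to 23.1 CPM (median 3.79) and 39.4 to 99.2 CPM (median 83.9). For Csf1r this was a log2 fold change of -3.53 ± 0.32 (adjusted p = 3.49e-08). The ranges of Ccr2 and Csf1r did not overlap. Of 16 interferon-stimulated genes 11 were lower and 0 higher (median log2 fold change -1.18). Gbp2 (-1.71 ± 0.24), Igtp (-2.16 ± 0.25) and Isg15 (-1.26 ± 0.25) were among the lower, and Irf7 (-0.11 ± 0.18; adjusted p = 0.644) was among those that did not pass.

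Genes of cDC2 were low in cDC1. Of 15 tested 14 were lower and 1, Clec12a, was higher (median log2 fold change -3.27). The 14 include Epcam, which is also an epithelial marker and whose call ended with DESeq2. The other 13 of the 28 in the files were below the filter, and a gene could pass it through cDC2 alone, which fixes its direction, so the count describes these genes only. Sirpa, which encodes an inhibitory receptor for CD47, was at 0 to 13.6 CPM (median 7.94) in cDC1 and 39.4 to 164 CPM (median 65.3) in cDC2. Sirpa differed by a log2 fold change of -3.51 ± 0.25 (adjusted p = 1.56e-09). Itgam, which encodes CD11b, was at 2.39 to 21.7 CPM (median 10.8) and 39.4 to 214 CPM (median 122). Itgam had a log2 fold change of -3.49 ± 0.26 (adjusted p = 1.75e-09). The lectin Clec10a was at 9.84 to 92.3 CPM (median 28.0) and 369 to 574 CPM (median 475). For Clec10a this was a log2 fold change of -4.04 ± 0.20 (adjusted p = 7.09e-12). The ranges of Sirpa, Itgam and Clec10a did not overlap. The largest differences towards cDC2 in every tumor also took in Timp1, an inhibitor of matrix metalloproteinases (-6.18 ± 0.38), the calcium-binding protein gene S100a4 (-4.82 ± 0.20) and the leukotriene B4 receptor gene Ltb4r1 (-4.51 ± 0.25). Ms4a4c (-4.49 ± 0.22), the proteoglycan gene Sdc4 (-4.27 ± 0.24), Cyp4f18 (-4.21 ± 0.35), Cd7 (-4.11 ± 0.34) and the membrane protein genes Tmem176a (-5.57 ± 0.22) and Tmem176b (-5.40 ± 0.24) completed them.

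Genes listed as markers of other cells were detected in each gate. Some of these markers, Csf1r, Cd14 and Tcf4 among them, are also on the lists of dendritic genes. The macrophage and monocyte marker Lyz2 was detected in 80.5% of tumor cDC1 and 76.2% of cDC2. Its median was 687 CPM in cDC1 and 2236 CPM in cDC2. The sums below therefore need not come from other cells. The 8 neutrophil markers summed to 45.3 to 5568 CPM in cDC1 (median 1583) and 91.9 to 9898 in cDC2 (median 2879). All 8 were detected in both gates, and 0 of the 5 tested passed with edgeR (3 at an unadjusted p under 0.05). S100a8 (-1.20, adjusted p = 0.109; 0.147 with DESeq2) passed in 5 alternatives at -1.86 to -1.11, among them the fits without tumor 5 or 7. S100a9 (-1.45, adjusted p = 0.0565; 0.0723 with DESeq2) passed in 8 alternatives at -2.14 to -0.72, among them the fits without tumor 2, 5, 7 or 8. The 12 macrophage and monocyte markers summed to 599 to 1740 CPM in cDC1 (median 887) and 1076 to 4772 in cDC2 (median 3107), all 12 being detected. Of 7 tested 6 were lower in cDC1. Spp1, osteopontin, was the higher one at 0 to 238 CPM (median 37.0) against 0 to 66.1 CPM (median 8.80). Spp1 differed by a log2 fold change of 2.66 ± 0.53 (adjusted p = 4.11e-04). The 8 epithelial markers summed to 19.3 to 704 CPM in cDC1 (median 105) and 77.1 to 1990.0 in cDC2 (median 353), all detected, and the 2 tested, Epcam (-1.43 ± 0.43) and Krt8 (-1.98 ± 0.38), were lower, Epcam not with DESeq2 (-1.20). The 4 plasma cell genes tested and 2 of the 3 plasmacytoid genes were lower in cDC1 as well. The 7 plasmacytoid markers, Tcf4 among them, summed to 47.1 to 788 CPM in cDC1 (median 99.6) and 143 to 1412 in cDC2 (median 522). Of 7 NK markers Ncr1, Klrb1c, Klra8, Prf1 and Eomes were at 0 in cDC1. The 8 T cell markers summed to at most 25.4 CPM there. Of 14 dissociation stress genes 12 were lower in cDC1 and 0 higher (median log2 fold change -0.86), against 25% and 22.5% over all genes tested. Jun, an immediate early factor, was at 32.2 to 249.9 CPM (median 96.8) in cDC1 and 235 to 739 CPM (median 426) in cDC2. Jun had a log2 fold change of -2.0 ± 0.16 (adjusted p = 4.06e-09). The part of this RNA in the differences was not tested. In 58 of the 365 tumor cDC1 (15.9%) UMIs of another lineage reached the limit for possible doublets, 44 of them through Epcam, Krt8 and Krt18. Without such cells in either gate, 684 genes were higher and 725 lower in cDC1.

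**Figure D4:**
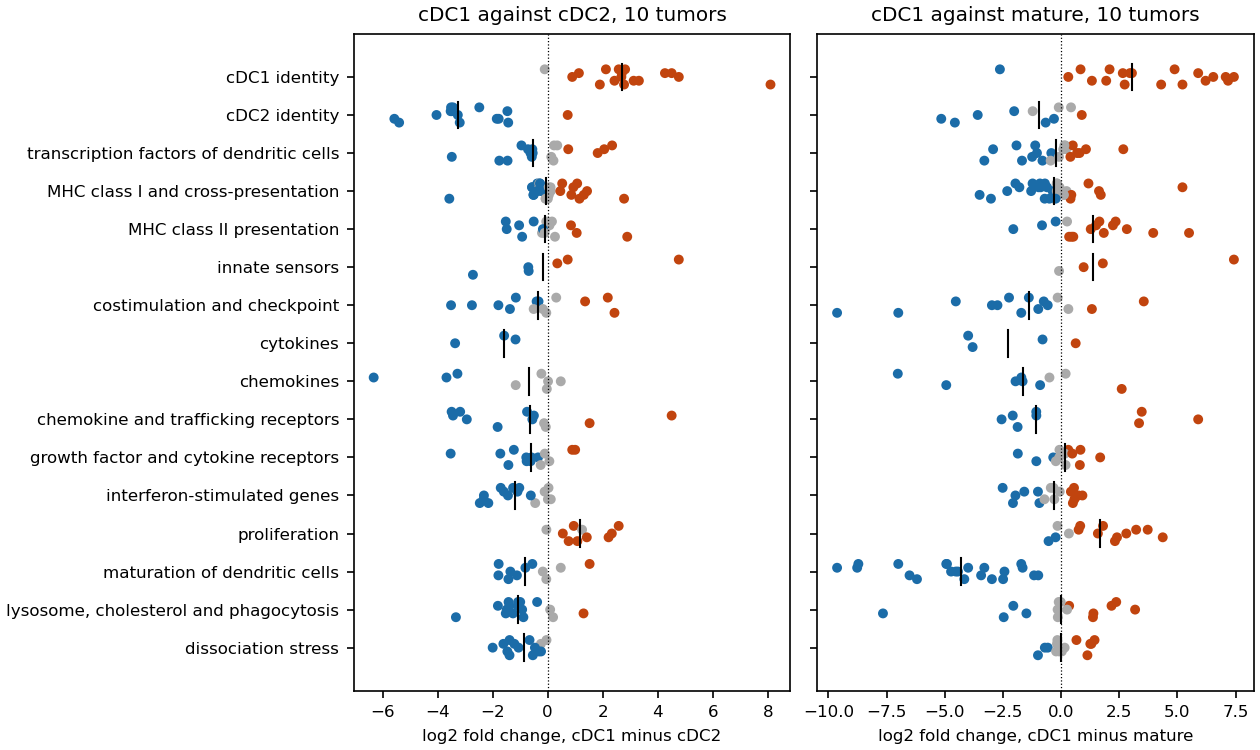
Log2 fold change of each tested gene of the lists, cDC1 minus cDC2 (left) and cDC1 minus mature dendritic cells (right), in 10 tumors; red is higher and blue lower in cDC1 at an adjusted p under 0.05, grey did not pass, and the line is the list's median. The interferon, lysosome and stress lists lie mostly below 0 against cDC2, with medians of -1.18, -1.08 and -0.86, and the maturation list has a median of -4.30 against mature cells.

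Against mature dendritic cells of the same tumors, 4392 genes were tested and 62.6% were called. Of these 1396 were higher (31.8%) and 1352 lower (30.8%) in cDC1. The ranges did not overlap for 736 genes (16.8%). The same cDC1 entered both comparisons. Fscn1 and Ccr7 chose the mature cells. Genes of the gates were fitted with the rest, so those past the filter are in the counts of tested, called and non-overlapping genes. They are not read as results. In mature cells the neutrophil markers summed to 72.9 to 13635 CPM (median 1326), the epithelial ones to 34.4 to 3339 (median 128) and the macrophage ones to 64.8 to 733 (median 382), and their part in the differences was not tested. Batf3 did not pass here, at 165 to 280.4 CPM (median 218) in cDC1 and 134 to 227 CPM (median 187) in mature cells. For Batf3 this was a log2 fold change of 0.17 ± 0.12 (adjusted p = 0.22). Irf8 did not pass either, at 559 to 792 CPM (median 671) and 259 to 908 CPM (median 618). Irf8 differed by a log2 fold change of 0.22 ± 0.16 (adjusted p = 0.245). A miss of the threshold does not show equal levels: the 95% interval of the difference ran from -0.06 to 0.41 for Batf3 and from -0.09 to 0.53 for Irf8 on the log2 scale. Id2 was lower in cDC1, at 190.1 to 362 CPM (median 297) against 386 to 982 CPM (median 618) in mature cells, without overlap (log2 fold change -1.04 ± 0.15; adjusted p = 6.83e-06). Of 22 transcription factors tested 6 were higher and 10 lower (median -0.22), and of 17 interferon-stimulated genes 6 were higher and 6 lower (median -0.33).

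Of 19 identity genes tested, 18 were higher in cDC1 than in mature cells and 1 was lower (median log2 fold change 3.04 against 0.01 over all genes tested). Here too a gene with almost no UMIs in mature cells, such as Tlr3, passed the filter through cDC1, so the count is a description. Tlr3 had 390 UMIs in the tumor cDC1 and 1 in the mature cells, a ratio of 421 (exact 95% counting interval 75.1 to 16664). Sept3, a septin, had 329 and 1 (ratio 355, interval 63.3 to 14064), and Qpct, glutaminyl cyclase, 583 and 3 (ratio 210, interval 71.4 to 1020). Naaa was at 445 to 823 CPM (median 650.2) in cDC1 and 3.74 to 16.3 CPM (median 6.74) in mature cells. Naaa had a log2 fold change of 6.21 ± 0.16 (adjusted p = 3.66e-15). Wdfy4 was at 259 to 547 CPM (median 348) and 4.07 to 13.4 CPM (median 9.20). For Wdfy4 this was a log2 fold change of 5.22 ± 0.14 (adjusted p = 6.26e-15). Itgae was at 142 to 337 CPM (median 242) and 0 to 13.4 CPM (median 2.75). Itgae differed by a log2 fold change of 5.89 ± 0.24 (adjusted p = 5.70e-13). The ranges of Tlr3, Sept3, Qpct, Naaa, Wdfy4 and Itgae did not overlap. For Tlr3, Sept3, Qpct and Itgae, which passed the filter through cDC1, this is a description. Rab7b (6.54 ± 0.27), March1 (5.50 ± 0.37) and Asb2, part of a ubiquitin ligase (5.23 ± 0.34), were also among the largest differences. Flt3, at 78.7 to 169 CPM (median 124) and 71.0 to 148 CPM (median 94.1), overlapped. Flt3 had a log2 fold change of 0.31 ± 0.12 (adjusted p = 0.0328). That call ended in 6 alternatives, among them DESeq2 and the fits without tumor 1, 2 or 4. Ly75, which encodes the uptake receptor DEC-205, was the lower one at 19.8 to 56.6 CPM (median 35.5) against 154 to 281 CPM (median 239). For Ly75 this was a log2 fold change of -2.63 ± 0.13 (adjusted p = 8.75e-12).

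All 22 maturation genes tested were lower in cDC1 (median log2 fold change -4.30), against 30.8% lower over all genes tested. Fscn1 and Ccr7 chose the mature cells, and cDC1 had to have Fscn1 at 0. The direction of a list of maturation genes was thus largely set by the gates. Some of these genes also passed the filter through the mature gate alone, which fixed their direction, so the count describes them only. Il4i1, an enzyme that degrades aromatic amino acids, was at 0 to 4.40 CPM (median 0) in cDC1 and 494 to 1105 CPM (median 785) in mature cells. Il4i1 differed by a log2 fold change of -9.63 ± 0.23 (adjusted p = 9.05e-16). Cd63, a tetraspanin, was at 0 to 26.6 CPM (median 11.9) and 858 to 1335 CPM (median 1106). Cd63 had a log2 fold change of -6.52 ± 0.23 (adjusted p = 9.08e-14). Nudt17 had 1 UMI in the tumor cDC1 and 1039 in mature cells, a ratio of 963 (counting interval 172 to 38068). Tnfrsf4, which encodes OX40, had 1 and 1014, a ratio of 940 (168 to 37153). The ranges of Il4i1, Cd63, Nudt17 and Tnfrsf4 did not overlap. For Il4i1, Nudt17 and Tnfrsf4, which passed the filter through the mature gate, this is a description. The chemokine Ccl22 was at 3.30 to 68.5 CPM (median 26.2) and 496 to 1617 CPM (median 859). For Ccl22 this was a log2 fold change of -4.94 ± 0.29 (adjusted p = 9.61e-11). Relb, an NF-kB subunit, was at 18.2 to 70.6 CPM (median 39.0) and 271 to 466 CPM (median 389). Relb differed by a log2 fold change of -3.30 ± 0.16 (adjusted p = 8.77e-12). Il12b, a subunit of IL-12, was at 0 to 71.3 CPM (median 10.4) and 60.7 to 2209.6 CPM (median 190.2), with ranges that overlapped. Il12b had a log2 fold change of -4.0 ± 0.35 (adjusted p = 1.94e-08). The largest differences by the rule for named genes also held Fabp5 (-7.66 ± 0.18), the chemokine Ccl5 (-7.02 ± 0.24) and Socs2, an inhibitor of cytokine signaling (-7.00 ± 0.22). Mreg had 305 UMIs in mature cells and 1 in cDC1 (ratio 283, interval 50.4 to 11201), and the adenosine receptor gene Adora2a 290 and 1 (ratio 269, interval 47.9 to 10652).

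Class II genes were mostly higher in cDC1 than in mature cells, with 12 of 16 higher and 3 lower (median log2 fold change 1.39). Over all genes tested 31.8% were higher and 30.8% lower. H2-Ab1 was at 8441 to 12007 CPM (median 9921) in cDC1 and 1278 to 2617 CPM (median 1871) in mature cells. For H2-Ab1 this was a log2 fold change of 2.34 ± 0.09 (adjusted p = 2.47e-13). H2-DMb1, part of the peptide exchange factor, was at 646 to 859.6 CPM (median 809.9) and 20.7 to 72.0 CPM (median 53.3). H2-DMb1 differed by a log2 fold change of 3.96 ± 0.14 (adjusted p = 1.20e-13). Ciita, the class II activator, was at 63.9 to 165 CPM (median 95.8) and 7.49 to 42.3 CPM (median 27.3). Ciita had a log2 fold change of 1.83 ± 0.19 (adjusted p = 1.41e-07). The ranges of H2-Ab1, H2-DMb1 and Ciita did not overlap. Class I genes were more often lower, 16 of 31 against 6 higher (median -0.32), with H2-K1 at -1.23 ± 0.08 and B2m at -1.29 ± 0.08.

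Of 15 costimulation and checkpoint genes tested, 2 were higher and 11 lower in cDC1, against 31.8% higher and 30.8% lower over all genes tested. Havcr2 was at 101 to 169 CPM (median 153) in cDC1 and 0 to 20.7 CPM (median 12.6) in mature cells. For Havcr2 this was a log2 fold change of 3.55 ± 0.22 (adjusted p = 1.30e-10). Btla was the other higher one (1.32 ± 0.15). Cd274 was at 43.0 to 130.5 CPM (median 84.0) and 146 to 443 CPM (median 270.0). Cd274 differed by a log2 fold change of -1.71 ± 0.15 (adjusted p = 1.17e-08). The ranges of Havcr2 and Cd274 did not overlap. Pdcd1lg2 (-1.39 ± 0.15), Cd40 (-2.98 ± 0.18), Cd80 (-2.24 ± 0.19), Cd86 (-0.75 ± 0.11) and Cd200 (-4.53 ± 0.17) were lower. Pdcd1lg2 in cDC1 was thus above cDC2 and below mature cells. The integrin chains Itgb7 (3.35 ± 0.21) and Itgb2 (3.46 ± 0.28) and the chemokine Ccl4 (2.60 ± 0.41) were higher in cDC1, and Cxcl16, a membrane-bound chemokine, was lower (-1.96 ± 0.14).

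Proliferation genes were higher in cDC1 than in cDC2 in 8 of 10 tested and lower in 0 (median log2 fold change 1.16). The other 15 of the 25 listed did not pass the filter, and genes such as Birc5 and Pclaf, with 48 and 47 UMIs in cDC2 and 444 and 509 in cDC1, passed it through cDC1, so the count describes these genes only. Against mature cells 10 of 14 were higher and 2 lower (median 1.69). Over all genes tested 22.5% were higher in cDC1 than in cDC2, and 31.8% higher than in mature cells. Stmn1, a regulator of microtubules, was at 119.5 to 454 CPM (median 222) in cDC1 and 5.22 to 204 CPM (median 25.9) in cDC2. Stmn1 had a log2 fold change of 2.21 ± 0.28 (adjusted p = 2.69e-06). Birc5, survivin, was at 36.4 to 148 CPM (median 94.5) and 0 to 56.9 CPM (median 1.53). For Birc5 this was a log2 fold change of 2.33 ± 0.42 (adjusted p = 1.24e-04). Top2a, topoisomerase II, was at 25.7 to 125 CPM (median 71.1) in cDC1 and 0 to 114 CPM (median 2.29) in mature cells. Top2a differed by a log2 fold change of 3.22 ± 0.48 (adjusted p = 1.34e-05). The ranges overlapped for all 3. Mki67 differed less from cDC2, by a log2 fold change of 0.95 ± 0.32 (edgeR adjusted p = 0.0187), and was lower in cDC1 in 2 of 10 tumors. The call on Mki67 ended without tumor 2 (0.84) and without the tumor as a block (0.85). With every cell thinned to 3000 UMIs, which left out 2 cDC1, 7 cDC2 and 9 mature cells, 51 of 363 cDC1 had a UMI of Mki67 or Top2a (14%; exact 95% binomial interval 10.6 to 18.1%). The share was 3.56% in cDC2 (12 of 337; 1.85 to 6.14%) and 5.93% in mature cells (34 of 573; 4.14 to 8.19%). Unthinned, the shares were 24.7, 5.52 and 13.4%. Over tumors the thinned share of cDC1 ran from 3.03 to 38.1% (median 12.5%), that of cDC2 from 0 to 12.5% and that of mature cells from 1.80 to 13.6%, so the gates overlapped. It exceeded that of cDC2 in 9 of 10 tumors, by 10.3 points ± 10.0 on average (SD, n = 10 tumors; exact sign-flip permutation test, p = 0.00391). It exceeded that of mature cells in 8 of 10, by 7.57 points ± 10.0 (SD, n = 10 tumors; exact permutation p = 0.0254). The sign flips took the 10 tumors as independent although several came from 1 mouse, and these p-values were not adjusted. Leaving out cells with RNA of another lineage gave 11.2 and 7.47 points. In the 286 cells outside the gate, with a sum of Xcr1 and Clec9a of 1, Mki67 was at 96.5 CPM and Top2a at 77.8 CPM. All members in tumors had 46.5 and 65.7 CPM. Mki67 was detected in 15.0% of the cells outside and 21.4% of members, and Top2a in 7.69 and 14.8%, at unlike depth. These differences were not tested. No phase of the cell cycle was read from these genes.

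The 6 cDC1 of the AP1086 mucosa held 57923 UMIs in all, too few for a test, and no mucosa library reached 10 such cells, so tumor and mucosa cDC1 were set side by side for counting error only. Batf3 had 8 UMIs there (138 CPM; exact Poisson interval 59.6 to 272) and lay at 165 to 280.4 CPM (median 218) over the tumors. Irf8 was at 1554 CPM (1249 to 1910) and Naaa at 1312 CPM (1034 to 1642), above the highest tumors (792 and 823 CPM). Ifi205 was at 242 CPM (132 to 406), below the lowest tumor (438 CPM), and Cst3 at 28987 CPM (27617 to 30407) fell inside the tumor range. Plet1 was at 51.8 CPM (10.7 to 151) against a lowest tumor of 389 CPM, and Cxcl16 at 17.3 CPM (0.437 to 96.2) against a lowest tumor of 125 CPM. S100a8 and S100a9 each had 0 UMIs, which allows up to 51.8 CPM by the same limit of 3 counts, while the tumors ran from 19.1 to 1987 CPM for S100a8. Mki67, Top2a and Ccr7 were also at 0 UMIs in these 6 cells. They come from 1 library that was dissociated differently from the tumors, and the differences are between these cells only.

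Between mice, 213 of 5325 genes (4%) differed over the cDC1 of the 10 tumors at an adjusted p under 0.05, and 943 at an unadjusted p under 0.05. Of the 213, AP1086 had the highest mean of the mice in 99 and the lowest in 107. The 5 genes with the smallest p had an adjusted p of 0.00979 each. Tnfaip2, a gene that tumor necrosis factor induces, was at 52.8 to 71.8 CPM in the 4 tumors of AP1086, 123 to 194 in the 4 of AP1044 and 152 in both of AP1067, so AP1086 did not overlap with the others. Cxcl16 was at 125 to 169, 241 to 385 and 234 to 247 CPM in the same order, and the nuclear RNA Neat1 at 66.5 to 143, 231 to 396 and 147 to 219 CPM. Vps37b, of the endosomal sorting machinery, was at 41.8 to 76.4, 120 to 221 and 97.8 to 144 CPM, and Tmsb10, a thymosin that binds actin, went the other way with 4885 to 6561, 3082 to 3319 and 2688 to 4791 CPM. These 5 were chosen for their small p, which also favors genes whose mice do not overlap. Without tumor 1, and without the tumors of AP1044, the calls on Neat1, Vps37b, Cxcl16 and Tmsb10 ended, and without the tumors of AP1086 those on all 5 ended. Of 84 ribosomal protein genes tested 22 were called, 20 of them highest in AP1086, a group named after its values were seen. Of 15 dissociation stress genes tested 2 were called, each lowest in AP1086. Mouse and age cannot be told apart. The count fell to 2 genes without tumor 1, to 51 without tumor 2 and to 0 without the 4 tumors of AP1086 (edgeR, 284 at an unadjusted p under 0.05; DESeq2 was not run without these tumors).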

How the data were processed

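The authors deposited raw UMI counts per gene and barcode for each library, unnormalized and already limited to called cells. The submitters' processing notes name Cell Ranger 6.0.0 and the build mm10. The paper's methods give another Cell Ranger version. Gene symbols were those of the files. Of 137591 barcodes, 7797 were removed by the gene minimum, 10902 by the mitochondrial limit and 0 by the UMI minimum. Libraries held 57221300 to 116133079 UMIs. No doublet caller was run: cells with at least 2 UMIs of Epcam, Krt8 and Krt18, of Cd3d, Cd3g and Trac or of Cd79b and Ms4a1, or 20 of S100a8 and S100a9, were left out in an alternative.

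Counts were summed per tumor and gate where both gates had at least 10 cells, and tested with edgeR 4.0.16 (TMM, filterByExpr, glmQLFit and glmQLFTest, tumor as a block) in R 4.3.3, with DESeq2 1.42.0 as an alternative. The scripts were tested on simulated data. Shares were compared by exact permutation within mice (Python 3.11.15, scipy 1.17.1). Libraries were paired by the mouse in the labels, not by replicate number. cDC2 were cells with at least 2 Cd209a UMIs and no Xcr1, Clec9a or Fscn1 UMI, and mature cells had at least 2 Fscn1 UMIs and 1 Ccr7 UMI. NK cells had at least 2 Ncr1 and Klrb1c UMIs without Cd3e, and CD8 T cells had Cd8b1 and Cd3e, both with under 3 H2-Aa UMIs.

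Beyond the lists, the 10 genes with the largest fold change in each direction against cDC2 and the 8 against mature cells were named, among those past the threshold and changed the same way in every tumor, gate genes left out, and the 5 with the smallest p between mice. This choice favors genes whose gates or mice do not overlap. The members and the lists were chosen with earlier results of these data known. Intervals and limits of counts and shares cover counting error only. The intervals of log2 fold changes were taken from the SE of the edgeR fit over the tumors. A cell count of 0 allows up to 3 counts of the total. No test of tumor against mucosa cDC1 was made for genes, since no mucosa library had 10 cDC1.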

Additional observations from a re-analysis of the deposited data

Results flagged for a closer look

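Among 119 sets of 10 tumor values of cDC1, 21 had 1 tumor that stood apart, with a gap to the next tumor above Dixon's 95% limit for 10 values. For normally distributed values chance gives about 1 in 20 sets. In all 21 the tumor apart was the highest and 4 rested on a single UMI, so the number was not read against that rate. Tumor 10, with 16 cDC1, was the high one for Il1b (2607 CPM), Kit (158 CPM), Clec10a (92.3 CPM), Igtp (92.3 CPM) and Cyp4f18 (27.2 CPM). Tumor 4 was high for Epcam (213 CPM), Krt8 (101 CPM) and Tmem176a (46.2 CPM). Tumor 6 was high for Klf4 (188 CPM), Hspa1a (109 CPM) and Itgax (109 CPM). Tumor 7 was high for Serpinb6b (518 CPM) and Asb2 (83.5 CPM), and tumor 3 for Ciita (165 CPM). Tumor 1 was high for Cst3 (43100 CPM), tumor 2 for Spp1 (238 CPM) and tumor 5 for Ccl6 (71.3 CPM). A single UMI set apart Nudt17 (2.39 CPM, tumor 3), Tnfrsf4 (1.21 CPM, tumor 2), Mreg (1.21 CPM, tumor 2) and Adora2a (3.30 CPM, tumor 6). Their causes were not tested.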

How the results depend on the processing

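The higher cDC1 share of all cells in tumors kept its direction in every alternative run. Thinned to 1000 UMIs, with the looser limits, the difference was 0.121 points. With at least 1 Xcr1 and Clec9a UMI it was 0.577 points and with at least 3 0.219 points. Without 1 library it lay between 0.302 and 0.361 points. Without the mucosa of AP1086 or AP1044 the smallest p the test could give was 0.0667. For the ratio to Ptprc+ cells thinning with the looser limits gave 0.272 points (exact permutation p = 0.08), and leaving out 1 library 0.429 to 0.503. Without the mouse as a replicate block the differences were 0.345 points of all cells and 0.490 points for the ratio to Ptprc+ cells. Without the filter on low counts the calls rose to 2590 against cDC2 (1380 higher, 1210.0 lower), 4487 against mature cells (2170 higher, 2317 lower) and 373 between mice. That fit gave Batf3 against cDC2 an adjusted p of 1.06e-44, against 8.32e-10 with the filter, and the cause was not tested. Without the tumor as a replicate block 1365 and 2533 genes were called. Leaving out 1 tumor gave 1435 to 1651 calls against cDC2 (656 to 766 higher, 767 to 887 lower) and 2516 to 2884 against mature cells (1279 to 1480 higher, 1223 to 1404 lower).

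The calls between mice were the least stable of the 3 gene comparisons. They ran from 2 (without tumor 1) to 268 when 1 tumor was left out, and were 51, 93, 101, 91 and 110 without tumor 2, 5, 6, 7 or 8. They were 105 with at least 3 Xcr1 and Clec9a UMIs, 14 without the tumors of AP1044, 354 without those of AP1067 and 0 without those of AP1086. H2-Eb1 against cDC2 (0.07) turned to -0.033 without cells of mixed lineage, to -0.043 with at least 20 cells per sum and to -0.024 without tumor 7, its range without 1 tumor reaching 0.10. Itgax (-0.11) turned to 0.0046 without the filter. Of the named genes 71 of 83 against cDC2 and 47 of 48 against mature cells kept direction and call in every alternative that gave a value (1467 and 856 values in all, some genes having none in some alternatives); the exception against mature cells was Flt3 (6 alternatives). Of the 5 named between mice 0 kept their call in every alternative. The share test between mice gave F values of 0.806 to 3.68 without 1 tumor and 5.24 with at least 1 Xcr1 and Clec9a UMI. The difference in the share of the dendritic gates was -12.8 to -9.63 points without 1 library. Thinned it was -27.3 points, with looser limits in which any UMI of Cd209a, or of Fscn1 beside Ccr7, was also enough.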
